A study of Caenorhabditis elegans with 15 samples.

Results

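The sperm genes described here are the C. elegans genes whose names begin with msp-, spe- or ssp-, together with gsp-3 and gsp-4. A probe set was taken as a member when the platform annotation gave it 1 gene symbol and that symbol met this naming rule, and a gene with several probe sets was represented by the one with the highest mean over all arrays. This gave 62 genes of the 17118 with a probe set of their own: 23 msp, 29 spe, 8 ssp and 2 gsp genes. No measured value other than that mean entered this rule, but the members were chosen with earlier results of these data known.

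The study asked which mRNAs are bound by GLD-1, a STAR-domain RNA-binding protein that represses translation in the germline, by immunoprecipitating (IP) the protein and hybridizing the recovered RNA to Affymetrix arrays. The lysates came from whole worms at the young adult stage. In set 1, 3 anti-FLAG IPs (FLAG IPs) and 3 anti-MYC IPs (MYC IPs) were made from a tagged strain. It carries the mutant allele gld-1(q485) together with ozIs2, an integrated transgene written gld-1::gfp::flag, for GLD-1 fused to GFP and FLAG. In set 2, 3 anti-FLAG IPs were made from the tagged strain (tagged IPs) and 3 from wild-type N2 (N2 IPs). N2 differs from the tagged strain in the gld-1 allele as well as in the transgene. The last 3 arrays held input RNA of the tagged strain. Strategy 1 is the FLAG IP minus the MYC IP of set 1, strategy 2 is the tagged minus the N2 IP of set 2, and they share no array. The labels number the replicates but do not say whether they were separate cultures, so the p-values measure the spread between these samples, which may be technical.

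C. elegans hermaphrodites make a limited stock of sperm first and then switch to oocytes. Their sperm crawl by assembling the major sperm protein (MSP), encoded by the many near-identical msp genes, and MSP released from sperm also signals oocytes to mature and ovulate. The spe genes were named from mutants with defective spermatogenesis or sperm function and encode unrelated proteins, such as kinases, channels and surface proteins. The ssp genes encode small sperm proteins with an MSP domain. In the same germline GLD-1 is best known for holding oocyte mRNAs silent until late oogenesis, and it also takes part in the choice of sperm fate.

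Values are log2 signals, and a change is a difference of 2 group means on that scale. Each array has a lowest value shared by many probe sets, 2.455 to 2.53 on set 1 IPs, and a value within 0.1 of it is called near the floor here. Between 550 and 2170 probe sets reached log2 5 on the FLAG IPs, 194 to 820 on the MYC IPs, 1265 to 1784 on the tagged IPs, 221 to 435 on the N2 IPs and 7632 to 9352 on the inputs. Of 10 oocyte markers, 9 rose in each strategy (limma, adjusted p under 0.05), with medians over the list of 5.20 and 6.43. The yolk receptor gene rme-2, for example, changed by 5.43 ± 0.616 in strategy 1 and 6.75 ± 0.616 in strategy 2 (SE, adjusted p = 0.00322 and 0.000549). The list includes oma-2 and rme-2, which were taken beforehand as transcripts recovered with GLD-1, so its rise was in part set by that choice. No marker of muscle (5), intestine (6) or cuticle (5) was called in either strategy, and of 5 neuron markers snb-1 and unc-119 were called in strategy 2. Before adjustment, limma gave p under 0.05 in strategy 1 for 1 cuticle and 2 neuron markers.

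Transcripts of the msp, ssp and gsp genes were prominent in the input RNA. All 23 msp genes, all 8 ssp genes and both gsp genes reached log2 5 on all 3 input arrays, and 6 of 29 spe genes did. This was 62.9% over the 62 members and 20.7% over the spe genes, beside 33.6% of all genes. The 23 msp probe sets, which share sequence, make up much of the pooled share. Since whole worms were lysed, fewer sperm and less of a transcript per sperm cannot be told apart in these levels. The spe-36, spe-40 and spe-49 probe sets were near the floor on every input array. The heat map of all members shows the bright input columns for msp, ssp and gsp genes and the mostly dark IP columns for spe genes.

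**Figure D1:**
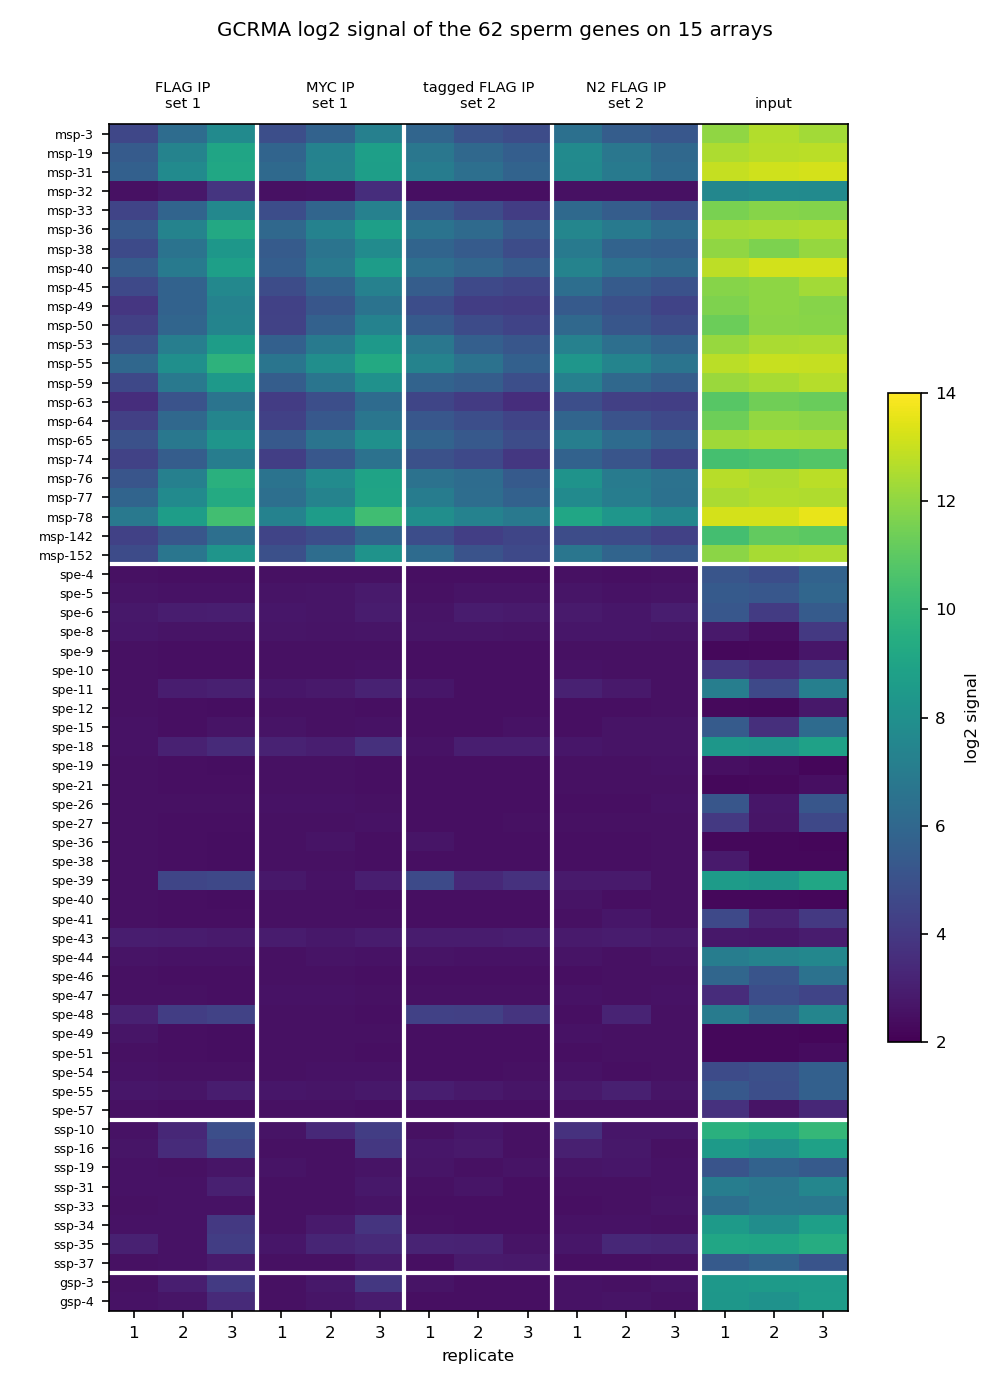
Log2 signal of the 62 sperm genes (rows, by family) on 15 arrays (columns, 3 replicates for each of 5 groups). All 23 msp genes are at log2 5 or more on every input array, while 15 of 29 spe genes are near the floor on all 12 IP arrays.

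The members share sequence to very different degrees. The array maker's suffix _x_at or _s_at, which marks probes that match more than 1 transcript, was on 37 of 62 probe sets: 23 of 23 msp (all _x_at), 8 of 29 spe (all _s_at), 4 of 8 ssp and 2 of 2 gsp genes. An msp value is therefore a reading of a group of related transcripts, and the msp genes are not independent measurements. The msp genes lie on chromosomes II (13 genes) and IV (10 genes), while the spe genes are spread over I (12), II (2), III (3), IV (8) and V (4). A further 10 probe sets name several genes with a sperm symbol among them, up to 17 on 1 probe set. None of these 10 was called, and their changes ran from -0.31 up to 0.09 (strategy 1) and from -0.95 up to -0.03 (strategy 2).

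Of the 62 sperm genes, none was called in strategy 1 and 1, spe-48, rose in strategy 2 (limma, adjusted p under 0.05 over 22548 probe sets). Among all probe sets, 2.41% were called higher and 0.0577% lower in strategy 1, and 5.47% higher and 0.173% lower in strategy 2. Before adjustment, p was under 0.05 for 1 member higher (spe-48) and 2 lower (spe-10 and spe-5) in strategy 1, where 12.5% of probe sets were, and for 1 higher and 10 lower in strategy 2, where 34.8% were. The difference between the strategies was called for no member and for no probe set, and before adjustment for no member and 1.57% of probe sets. The median change of the 62 genes was -0.01 in strategy 1 and -0.07 in strategy 2, beside -0.03 and -0.03 over all genes. The plot of both strategies places most members near the origin and the msp genes below it.

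**Figure D2:**
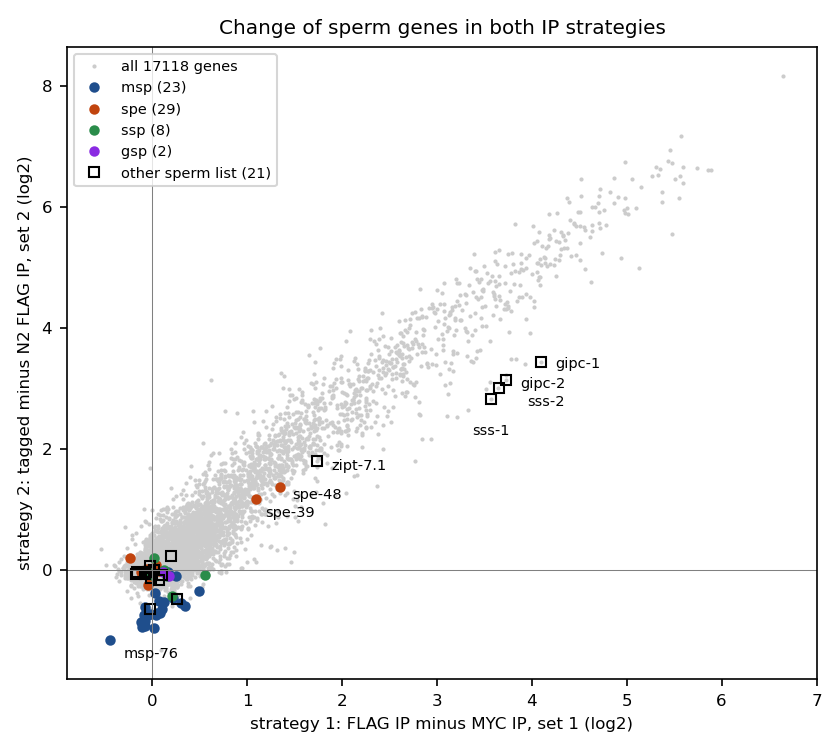
Change in strategy 1 (x axis, log2) against change in strategy 2 (y axis, log2) for every gene (grey), the 62 sperm genes by family (filled) and 21 further listed genes (open squares). The 23 msp genes span -0.45 to 0.49 along the x axis and -1.16 to -0.04 along the y axis, and sss-1, sss-2, gipc-1 and gipc-2 stand far to the upper right.

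Signal of 22 of the 23 msp genes was above the floor on all 12 IP arrays, with and without the tag, and msp-32 was near the floor on most of them. The median signal of the 23 msp genes was 4.68, 6.72 and 8.26 on the FLAG IPs, against 5.33, 6.62 and 8.02 on the MYC IPs. It was 5.88, 5.34 and 4.78 on the tagged IPs, against 6.88, 5.86 and 5.47 on the N2 IPs. The inputs had 12.0, 12.44 and 12.37. In both sets the arrays of the compared groups overlapped, and the spread inside each group of set 1 was wider than the difference between its group means.

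In strategy 1, 14 msp genes had a positive and 9 a negative change, with a median of 0.04 and a range of -0.45 to 0.49. No msp gene was called (lowest adjusted p 0.729, limma), none was under 0.05 before adjustment, and for all 23 the FLAG and MYC arrays overlapped. With a replicate block in the fit, a term for the replicate number within each set, 2 had p under 0.05 before adjustment. None was called with the block (lowest limma adjusted p 0.106). Without it the shift shared by replicates of the same number stays in the error. Standard errors then reached 1.06, so changes of this size were not detectable in that fit with 3 arrays a group. The median was -0.64 without MYC IP replicate 1, -0.78 without FLAG IP replicate 3 and -0.01 without MYC IP replicate 2. It was 0.69 without MYC IP replicate 3 and 0.88 without FLAG IP replicate 1, so its sign changed with the array left out. Dropping replicate 1 or 3 from only 1 group also unbalances the rise from replicate 1 to replicate 3 that both groups share.

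In strategy 2 all 23 msp genes had a negative change, with a median of -0.72 and a range of -1.16 to -0.04. None was called (lowest adjusted p 0.449, limma) and none was under 0.05 before adjustment. With the replicate block in the fit, 12 of the 23 were called lower, beside 24.5% of all probe sets. The tagged and N2 arrays overlapped for 22 of the 23 msp genes. The exception was msp-32, near the floor on all 6 arrays, and 42.5% of all probe sets had every tagged array below every N2 array. The floor itself was 2.471 to 2.486 on the tagged and 2.513 to 2.527 on the N2 arrays. The msp median was -0.30 without N2 IP replicate 1, -0.43 without tagged IP replicate 3 and -1.03 without tagged IP replicate 1. The difference between the strategies had a median of 0.74 over the msp genes (0.21 to 0.98), with an adjusted p of 0.997 (limma).

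The msp genes moved as a block from array to array. Pearson r between msp genes over the 12 IP arrays had a median of 0.979 (0.794 to 0.996 over 253 pairs), a description of probe sets that share both sequence and arrays. All 23 were lowest on replicate 1 and highest on replicate 3 of the FLAG IPs, and likewise on the MYC IPs. In set 2, 22 of 23 were highest on replicate 1 of the tagged IPs and 22 of 23 on replicate 1 of the N2 IPs. The 75 ribosomal protein genes, which every cell uses, followed the same arrays: 74 of 75 were lowest on replicate 1 of the FLAG and of the MYC IPs, and 74 of 75 were highest on replicate 1 of the tagged and of the N2 IPs. The plot of single arrays shows this shared movement.

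**Figure D3:**
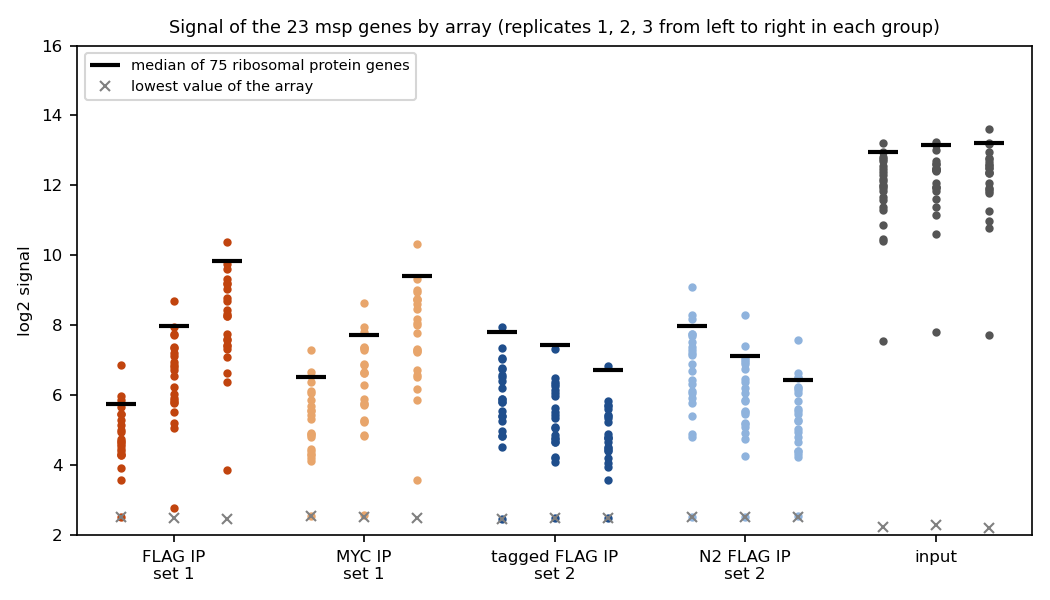
Log2 signal of the 23 msp genes (points) on each of 15 arrays, with the median of 75 ribosomal protein genes (bars) and the lowest value of the array (crosses). The msp and ribosomal medians move together within each IP group, and the lone low points are msp-32.

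Set against the ribosomal protein genes of the same array, the msp median was lower on each tagged IP than on each N2 IP of set 2, a description with no test. The msp median minus the ribosomal median was -1.92, -2.09 and -1.95 on the tagged IPs, against -1.10, -1.25 and -0.96 on the N2 IPs. The means were -1.99 ± 0.0907 and -1.10 ± 0.145 (SD, n = 3 each). With every array centred on its ribosomal protein genes, limma called 0 of 23 msp genes in either strategy, and 0 had p under 0.05 before adjustment. Centring carries the ribosomal shift between arrays onto probe sets at the floor, which widens the spread in that fit, so it decides little. With a replicate block added, 12 of 23 were called lower in strategy 2 (lowest limma adjusted p 0.000135), beside 0.106% of all probe sets. In strategy 1 none was called. This combination was chosen after seeing the data. In it the limma adjusted p followed the size of the change from gene to gene. In strategy 1 it was 7.13e-05 at 1.37 (spe-48), 1.69e-17 at 2.64 (fem-3) and 5.56e-32 at 3.58 (sss-1). Its calls thus act much like a cut-off on the change, and they decide little either. In set 1 the msp median minus the ribosomal median was -1.07, -1.27 and -1.59 on the FLAG IPs, against -1.18, -1.10 and -1.37 on the MYC IPs, which overlapped. The inputs had -0.95, -0.71 and -0.84. Only the change of this quantity between arrays can be read, since levels of different probe sets are not comparable. N2 and the tagged strain differ in genotype, no N2 input was analysed here, and the part of genotype in this difference was not tested.

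**Figure D4:**
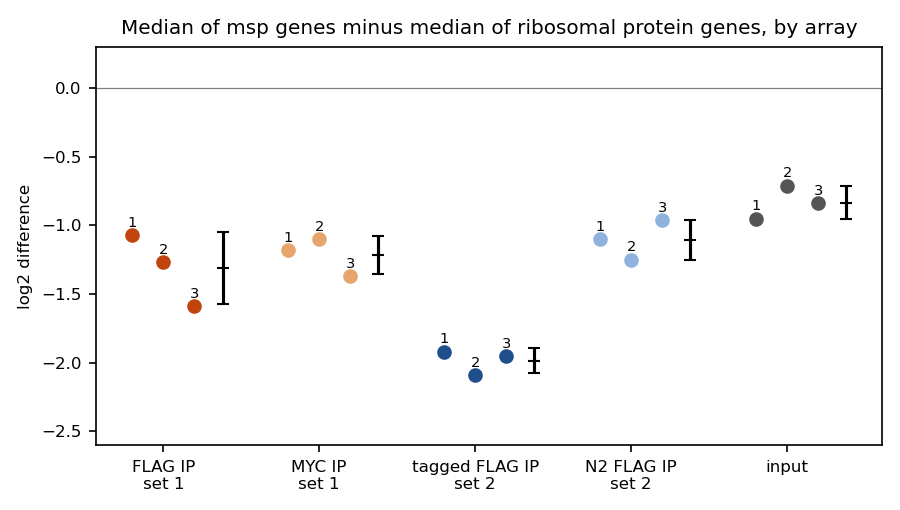
Median log2 signal of 23 msp genes minus that of 75 ribosomal protein genes on each array (points, numbered by replicate), with the mean and SD of each group of 3 (bars). The tagged IPs of set 2 lie at -1.92 to -2.09 and the N2 IPs at -0.96 to -1.25.

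Calls of msp genes depended on how the arrays were analysed, their scaling included. In the fit described above no msp gene was called. With a replicate block, 12 of 23 were called lower in strategy 2, and 18 with the block on only the 6 arrays of that comparison. The shares over all probe sets were 24.5% and 26.6%. In strategy 1 neither of these fits called an msp gene. After quantile normalization 21 were called lower in strategy 1 (median -1.59) and 22 in strategy 2 (median -2.85), and after cyclic loess 22 in each (medians -2.43 and -4.07). Over all probe sets 1.55% and 2.57% were called lower after quantile normalization, and 1.62% and 2.65% after loess, in strategies 1 and 2. The ribosomal protein genes moved too: their medians were -1.56 and -2.44 after quantile normalization, with 22 and 74 of 75 called lower, and -3.18 and -4.22 after loess, with 73 and 74 called lower. Over all probe sets the calls were 543 higher and 13 lower in strategy 1 on the deposited scale, and 685 higher and 350 lower after quantile normalization. In strategy 2 they were 1233 higher and 39 lower, and 962 higher and 579 lower. Centring each array on its ribosomal protein genes gave msp medians of 0.06 and -0.87, beside medians over all genes of -0.01 and -0.18.

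Single msp genes stayed within this pattern. The lowest mean change over both strategies belonged to msp-76 on chromosome IV. Its signal was 5.16, 7.21 and 9.60 on the FLAG IPs, against 6.55, 7.80 and 8.96 on the MYC IPs, and 6.53, 6.26 and 5.41 on the tagged IPs, against 8.17, 7.01 and 6.51 on the N2 IPs. The arrays overlapped in each set, and the changes were -0.45 ± 1.06 and -1.16 ± 1.06 (SE, limma adjusted p = 0.807 and 0.449). The next lowest was msp-78, at -0.11 and -0.95. At the other end, msp-64 changed by 0.49 ± 0.826 and -0.35 ± 0.826 (adjusted p = 0.729 and 0.790), and msp-142 by 0.25 ± 0.517 and -0.10 ± 0.517 (adjusted p = 0.778 and 0.912). After quantile normalization and loess msp-64 and msp-142 were called lower in strategy 1.

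By chromosome, the 13 msp genes on II had median changes of 0.12 in strategy 1 and -0.53 in strategy 2, and the 10 on IV had -0.08 and -0.86. These are descriptions of probe sets that share sequence within each cluster. The msp-32 probe set had an input mean of 7.69, and a second probe set for this gene, not marked as shared, changed by -0.38 and -0.04 and was not called.

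The spe genes were at or close to the floor in the IPs. On all 12 IP arrays, 15 of 29 were near the floor (51.7%, beside 38.4% of all genes), and none reached log2 5 on all arrays of any IP group. Their median change was -0.03 in strategy 1 and -0.04 in strategy 2, and apart from spe-39 and spe-48 the other 27 lay between -0.23 and 0.13 (strategy 1) and between -0.25 and 0.20 (strategy 2). For 4 spe genes every FLAG array was below every MYC array, beside 6.02% of all probe sets. For 16 every tagged array was below every N2 array, beside the 42.5% of all probe sets given above. A gene at the floor in all IPs has no measured change, whatever its p.

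Genes for sperm surface and secreted proteins needed at fertilization gave no call. Of 9 listed, 6 were measured: spe-9, with EGF-like repeats, spe-36, spe-38, spe-41, a TRP family channel, spe-49 and spe-51. Their changes spanned -0.06 to 0.01 (strategy 1) and -0.11 to 0.02 (strategy 2). In the input, spe-41 had 4.64, 3.17 and 3.99, and it was 2.53, 2.50 and 2.49 on the FLAG IPs, against 2.54, 2.53 and 2.56 on the MYC IPs.

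Genes for sperm activation, the step that turns round spermatids into crawling spermatozoa, also gave no call among 8 measured of 9. They include spe-8, a tyrosine kinase, spe-6, a casein kinase 1 family member, and spe-12, spe-19, spe-27, spe-43, spe-46 and spe-47. Changes ran from -0.04 to 0.13 and from -0.07 to 0.08. The highest change in strategy 1 was that of spe-6, 0.13 ± 0.096 (SE, limma adjusted p = 0.411), with input levels of 5.27, 4.10 and 5.44.

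The genes for sperm organelles and meiotic divisions held spe-39 and 6 others that were not called: spe-4, a presenilin, spe-5, a V-ATPase subunit, spe-10, a palmitoyltransferase, spe-15, a myosin VI, spe-18 and spe-26, a kelch protein. In the input spe-18, needed to assemble MSP into fibrous bodies, had 8.34, 8.22 and 8.89. It was 2.60, 3.08 and 3.42 on the FLAG IPs, against 3.13, 2.99 and 3.67 on the MYC IPs, and 2.60, 3.00 and 3.00 on the tagged IPs, against 2.73, 2.62 and 2.65 on the N2 IPs. These arrays overlapped, and the changes were -0.23 ± 0.233 and 0.20 ± 0.233 (SE, adjusted p = 0.550 and 0.567). The change of spe-5, the lowest but for spe-11 by the mean of both strategies, was -0.12 ± 0.053 and -0.03 ± 0.053 (adjusted p = 0.322 and 0.737).

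The last classes held 1 gene each. spe-11, a paternal protein that acts in the fertilized egg, had 7.14, 4.66 and 7.19 in the input and changed by -0.04 ± 0.178 and -0.25 ± 0.178 (SE, limma adjusted p = 0.890 and 0.336). spe-44, a transcription regulator of the sperm program, averaged 7.34 ± 0.227 in the input (SD, n = 3) and group means of 2.58 to 2.60 in all IPs. Its changes were 0.01 and 0.00. The 5 other spe genes with no role given here, spe-21, spe-40, spe-54, spe-55 and spe-57, changed by -0.03 to 0.07 (strategy 1) and -0.07 to -0.02 (strategy 2), with no call. Input replicate 2 was the lowest of the 3 inputs for 18 of 29 spe genes (62.1%, beside 45.3% of all genes).

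The exception among the members was spe-48, on chromosome I, a gene whose role is not stated here. Its signal was 3.09, 4.16 and 4.36 on the FLAG IPs, against 2.53, 2.52 and 2.49 on the MYC IPs. It was 4.32, 4.25 and 3.81 on the tagged IPs, against 2.51, 3.21 and 2.53 on the N2 IPs. In each set every IP of the tagged protein was above every control IP, as for 6.14% of all probe sets in strategy 1 and 14.9% in strategy 2. The change was 1.35 ± 0.325 in strategy 1 (SE, limma adjusted p = 0.0809) and 1.37 ± 0.325 in strategy 2 (adjusted p = 0.0436). The control IPs were near the floor, except N2 IP replicate 2, so the fold changes of 2.56 and 2.59 are measured against that floor. In the input it spanned 6.04 to 7.48.

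The call of spe-48 in strategy 2 was close to the threshold and was made in 10 of 25 alternative analyses, with a positive change in all 25. Leaving out 1 array kept it only without FLAG IP replicate 1, FLAG IP replicate 3 or N2 IP replicate 2, and the adjusted p ran from 0.0608 to 0.169 without each of the other 9 arrays. In strategy 1, without FLAG IP replicate 1, the change was 1.74 with a limma adjusted p of 0.00195. Without any other single array the adjusted p in strategy 1 was 0.0886 to 0.321, and 3 of 25 alternatives made the call there.

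spe-39, on chromosome V, encodes a vesicle trafficking protein that is not limited to sperm. Its signal was 2.52, 4.51 and 4.59 on the FLAG IPs, against 2.75, 2.59 and 3.01 on the MYC IPs, which overlapped through FLAG IP replicate 1. It was 4.69, 3.38 and 3.72 on the tagged IPs, against 2.85, 2.89 and 2.53 on the N2 IPs, with no overlap. The changes of 1.09 ± 0.540 and 1.17 ± 0.540 (SE) were not called (limma adjusted p = 0.322 and 0.150). Without FLAG IP replicate 1 the change in strategy 1 was 1.77 with an adjusted p of 0.0145. Without any other single array the adjusted p in strategy 1 was 0.217 to 0.749, and 2 of 24 alternatives made the call there. Its probe set is marked as sharing sequence.

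**Figure D5:**
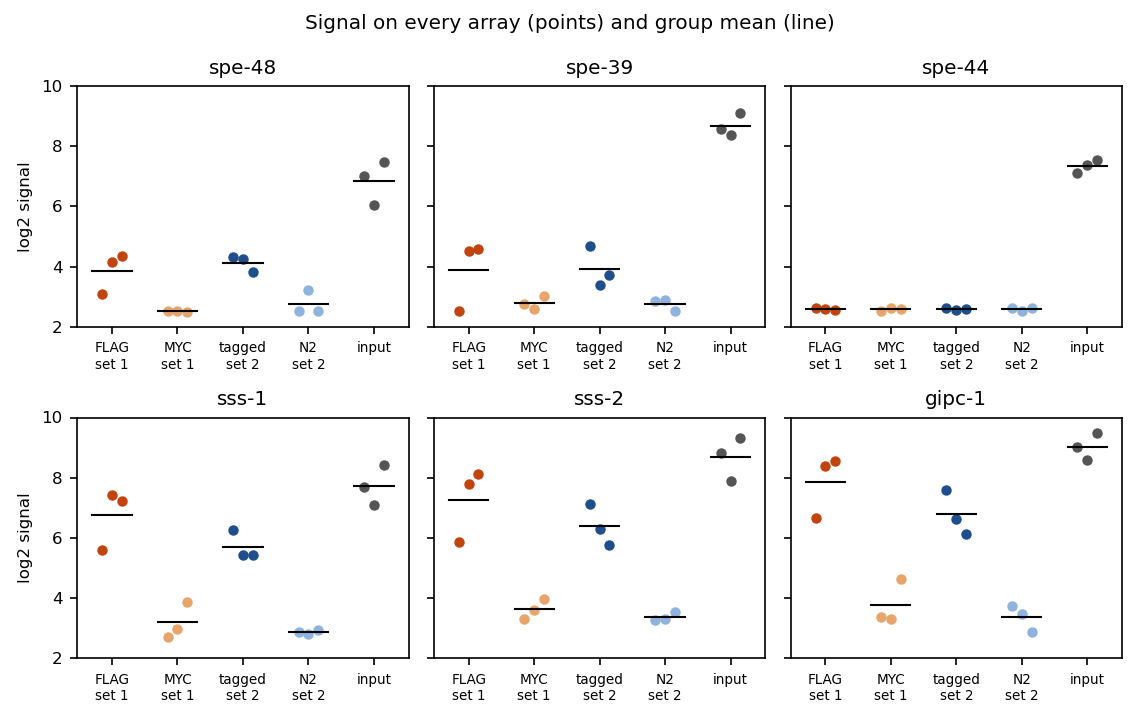
Log2 signal on every array (points) and group mean (line) of spe-48, spe-39, spe-44, sss-1, sss-2 and gipc-1. The tagged-protein IPs of spe-48 lie at 3.09 to 4.36 and its control IPs at 2.49 to 3.21, while spe-44 is at 2.54 to 2.63 in all IPs.

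The 8 ssp genes had median changes of 0.07 in strategy 1 (-0.03 to 0.56) and -0.07 in strategy 2 (-0.43 to 0.20), and none was called (limma, lowest adjusted p 0.480 and 0.144). Before adjustment none was under 0.05 in strategy 1, and ssp-33 was in strategy 2, at -0.09 ± 0.0312 (SE). That probe set was near the floor on all 3 tagged IPs and on 2 of the N2 IPs, so this is hardly a measured change. The gene with the highest change, ssp-16, had 2.68, 3.49 and 4.50 on the FLAG IPs, against 2.54, 2.53 and 3.93 on the MYC IPs, with 8.54, 8.09 and 8.89 in the input. Its change in strategy 1 was 0.56 ± 0.487 and the arrays overlapped. ssp-10 changed by 0.21 ± 0.589 and -0.43 ± 0.589, and ssp-37 by 0.02 ± 0.131 and 0.20 ± 0.131.

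gsp-3 and gsp-4 encode PP1 phosphatases of sperm. In the input gsp-3 had 8.40, 8.52 and 8.60, and gsp-4 had 8.35, 8.13 and 8.65. gsp-3 had 2.52, 3.03 and 4.06 on the FLAG IPs, against 2.54, 2.78 and 3.95 on the MYC IPs. The changes were 0.11 ± 0.425 and -0.04 ± 0.425 for gsp-3 and 0.18 ± 0.199 and -0.10 ± 0.199 for gsp-4 (SE), none of them called (limma, lowest adjusted p 0.588).

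Relative to input, msp signal was low in every IP group, whereas that of the oocyte markers was low in the control IPs and close to input in the IPs of the tagged protein. The median IP minus input difference over the msp genes was -5.58 on the FLAG IPs, -5.70 on the MYC IPs, -6.69 on the tagged IPs and -6.16 on the N2 IPs. Over the ribosomal protein genes it was -5.26, -5.19, -5.82 and -5.90 in the same groups. Over the 10 oocyte markers it was -1.04 on the FLAG IPs, against -6.40 on the MYC IPs, and 0.19 on the tagged IPs, against -6.39 on the N2 IPs. These differences have no test, because the IP and input arrays differ in the amount of RNA and in their distribution of values.

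Of a list of 28 further genes taken as sperm genes, 21 were measured, and 4 rose in both strategies, as did 2.33% of all probe sets, while 17 were called in neither (limma, adjusted p under 0.05), with medians of -0.01 and -0.04 over the list. The 4 were sss-1, sss-2, gipc-1 and gipc-2, whose roles in sperm are not certain here. sss-1 had 5.61, 7.44 and 7.24 on the FLAG IPs, against 2.70, 2.99 and 3.88 on the MYC IPs, and 6.25, 5.42 and 5.43 on the tagged IPs, against 2.86, 2.81 and 2.95 on the N2 IPs. No arrays overlapped, and the changes were 3.57 ± 0.494 and 2.82 ± 0.494 (SE, adjusted p = 0.00714 and 0.0104).

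The other three also had every IP of the tagged protein above every control IP. sss-2 changed by 3.65 ± 0.557 and 3.01 ± 0.557 (SE, limma adjusted p = 0.0116 and 0.0137), gipc-1 by 4.10 ± 0.597 and 3.43 ± 0.597 (adjusted p = 0.00905 and 0.0101), and gipc-2 by 3.73 ± 0.649 and 3.13 ± 0.649 (adjusted p = 0.0202 and 0.0237). The changes of all 4 were positive in every alternative, but the calls were less stable: in each strategy they held in 21 of 25 alternatives for sss-1, 20 of 27 for sss-2, 22 of 27 for gipc-1 and 18 of 25 for gipc-2. With only the 6 arrays of strategy 1 in the fit, limma called 0 of 22548 probe sets, and the adjusted p was 0.235 for sss-1, 0.253 for sss-2, 0.214 for gipc-1 and 0.354 for gipc-2. Centring on ribosomal protein genes lost the calls of sss-1 and sss-2 in strategy 1 (adjusted p = 0.073 and 0.0603) and of all 4 in strategy 2 (0.0826 to 0.341). With a replicate block added to the centring, all 4 were called in both strategies, in the fit whose adjusted p followed the size of the change. With the block after quantile normalization none of the 4 was called (adjusted p 0.0503 to 0.0678 in strategy 1 and 0.0567 to 0.193 in strategy 2). Quantile normalization without the block lost the calls of sss-2 and gipc-1 in strategy 2 (0.126 and 0.058). After cyclic loess the changes in strategy 2 were 0.86 for sss-1, 0.53 for sss-2 and 0.69 for gipc-1, none called (limma adjusted p = 0.0607, 0.496 and 0.146).

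Single arrays decided some of these calls. In strategy 2, without tagged IP replicate 1, the limma adjusted p was 0.052 for sss-1, 0.0635 for sss-2 and 0.106 for gipc-2. The call of sss-2 was also lost without N2 IP replicate 1 or 2 (adjusted p = 0.0528 and 0.0563), that of gipc-1 without N2 IP replicate 3 (0.0509), and that of gipc-2 without any 1 N2 array or tagged IP replicate 2 (0.0754 to 0.085). In strategy 1, sss-1 kept its call without any single array. The calls of sss-2 and gipc-2 were lost without MYC IP replicate 1 (adjusted p = 0.0608 and 0.0984), and those of sss-2, gipc-1 and gipc-2 without MYC IP replicate 2 (0.0584, 0.0529 and 0.0925) or FLAG IP replicate 2 (0.0648, 0.0524 and 0.103). The call of gipc-2 was lost without FLAG IP replicate 3 as well (0.0854). The sss-1 and gipc-2 probe sets are marked as sharing sequence. The zinc transporter gene zipt-7.1, which acts in sperm activation, changed by 1.74 and 1.80 with no overlap and was not called (adjusted p = 0.115 and 0.0575).

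Of the 5 genes that set sperm fate, fem-3 rose in strategy 2. It had 7.24, 6.40 and 6.33 on the tagged IPs, against 3.31, 3.10 and 2.84 on the N2 IPs, a change of 3.57 ± 0.574 (SE, limma adjusted p = 0.00702). In strategy 1 it was 4.20, 6.33 and 6.58 on the FLAG IPs, against 2.83, 2.85 and 3.55 on the MYC IPs, a change of 2.63 ± 0.574 with an adjusted p of 0.0541. Without FLAG IP replicate 1 that change was 3.38 with an adjusted p of 0.000383, and without any other single array the adjusted p was 0.0727 to 0.234. The call in strategy 1 was made in 8 of 26 alternatives. The difference between the strategies was not called for fem-3. fog-1 and fog-3, which act at the end of the pathway, changed by -0.11 and 0.13 and by -0.02 and -0.06. The fem-1 and fem-2 genes were not called (adjusted p = 0.322 and 0.749 in strategy 1 and 0.144 in strategy 2 for each).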

How the data were processed

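RNA of 15 arrays in 5 groups of 3 was analysed from the deposited values, which are on the log2 scale and, per the submitters' processing notes, were made by the authors with GCRMA, which corrects background and summarises the probes of a set. Its version and a genome build are not given in the sources used here. Per the labels' protocols, mouse brain RNA was added to the IPs before precipitation, and RNA was amplified once. Groups came from the sample titles. The table has 22625 probe sets, of which 22548 were tested after removing 77 controls, without further normalization or filter. Symbols came from the platform annotation (20766 probe sets with 1 symbol, 887 with several, 895 with none), and chromosomes from the RefSeq table of WBcel235. The members and lists were chosen with earlier results of these data known.

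The 12 IP arrays entered 1 linear model in limma 3.58.1 under R 4.3.3 (lmFit, eBayes, 8 residual and 0.849 prior degrees of freedom), with Benjamini-Hochberg adjustment over all tested probe sets and calls at adjusted p under 0.05. Simulated data with known changes were used to test the scripts. With 3 arrays a group, exact permutation p-values are 0.1 at the lowest. The number of arrays limits the precision. Named were gsp-3, gsp-4, called members, the 2 highest and 2 lowest by mean change in each of msp, spe and ssp, members of the spe role classes, members whose probe sets differ, and called genes of the other sperm list; spe-18, spe-6, spe-41, ssp-33, msp-32 and fem-3 are examples of their lists or single calls, chosen after their values were seen. Alternatives were a replicate block, other arrays in the fit, filters, quantile and loess normalization, centring on ribosomal protein genes, trend and robust eBayes, other probe set choices and leaving out each array.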

Additional observations from a re-analysis of the deposited data

How the results depend on the processing

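The count of members called lower in strategy 1, 0 on the deposited scale, became 21 after quantile normalization, 22 after cyclic loess and 13 with a replicate block after quantile normalization. In strategy 2 it was 0, and became 18 with a replicate block, 8 with only the 6 arrays of the comparison, 24 with both of these, 22 after quantile normalization with or without the block, 22 after loess, and 12 with the block after centring on ribosomal protein genes. Of these, msp genes were 12 of the 18 with the block, 1 of the 8 with only the 6 arrays, 18 of the 24 with both, and all 12 with the block and centring. Over all probe sets, 24.5% were called lower in strategy 2 with the block, 28.6% with only the 6 arrays, 26.6% with both and 0.106% (24 probe sets) with the block and centring. With the block and centring the adjusted p followed the size of the change, so those calls act much like a cut-off on it. With the block alone msp-78 had an adjusted p of 0.0196 (limma). The count called higher in strategy 2, 1 on the deposited scale, was 0 with all 15 arrays, under filters at log2 5 and 7 on 3 IP arrays (which left 22 and 11 members), after quantile normalization with or without the block, after loess, after ribosomal centring and with shared probe sets left out, and 2 with the block and ribosomal centring. In strategy 1 the count called higher, 0 on the deposited scale, was 1 with trend and robust eBayes and 2 with the block and ribosomal centring. The msp median was -1.59 and -2.85 after quantile normalization, with or without the block, and -2.43 and -4.07 after loess in strategies 1 and 2. The spe median in strategy 2 was -0.02 after quantile normalization, with or without the block, -0.19 after ribosomal centring, with or without the block, and -0.01 after loess, and in strategy 1 it was 0 after loess. In strategy 1 msp-142 reversed to -1.42 after quantile normalization, with or without the block, and -1.38 after loess, and msp-64 to -1.25 and -1.44. The cause was not tested.

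Leaving out 1 array in turn gave 0 to 2 higher and 0 to 0 lower in strategy 1, 0 to 1 higher and 0 to 2 lower in strategy 2, msp medians of -0.78 to 0.88 and -1.03 to -0.30, and spe medians of -0.04 to -0.02 and -0.04 to -0.03, with no call of the difference between strategies. Medians were not computed under the filters, which drop members, and the difference between strategies has no value in fits of 6 arrays. The 3 combined block alternatives were chosen after seeing the data. Deviations from the group means of samples with the same number had r of 0.803, -0.07 and 0.873 in strategy 1. In strategy 2 they had 0.511, 0.037 and 0.520. Between replicates 1 and 3 of the compared groups r was -0.83 and -0.837 in strategy 1, and -0.496 and -0.525 in strategy 2. Replicates 1 and 3 thus moved with their number in both sets, and the fit without a block leaves this shared shift in its error. The labels only number the replicates, so the block is given as an alternative.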
